A study of Mus musculus with 39 samples.

Results

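The IGF, growth hormone and insulin axis was followed through sucrose gradients of mouse liver as the RNAs of 10 named genes. These were 5 secreted factors (Igf1, Igfals, Igfbp1, Igfbp2 and Igfbp4), 3 receptors (Ghr, Insr and Igf2r) and 2 cytosolic adaptors (Irs1 and Irs2). They were chosen by name, and all 10 were found among the 13230 genes present in the tables of both gradients. Livers came from wild type FVB female mice with no treatment, and the age and the number of animals per homogenate are not given in the sources used here. Tissue was homogenized with beads and without detergent, nuclei were spun out, and the remainder was layered on a 10–50% sucrose gradient that was cut into 24 fractions, with low numbers at the light end. RNA was sequenced from 17 fractions of gradient 1 (4 to 19 and 21) and 22 fractions of gradient 2 (3 to 24), and the gradients are independent biological replicates. Every group is therefore 1 fraction with at most 2 libraries, and no condition other than fraction and gradient was varied.

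Values are in TPM, a unit that corrects read numbers for transcript length, sums to nearly the same total in each library and so gives the share of an RNA in its own fraction. An equal mass of RNA entered each library, so a lower TPM in a dense fraction does not say how much of the RNA sedimented there. In a homogenate of whole liver, fewer cells of a type and less RNA per cell also cannot be told apart. Libraries summed to between 998099 and 999202 TPM, from 10532 to 12558 genes were over 1 TPM in a library, and the 50 most abundant genes held 27.1 to 52.4% of a library. Whole profiles of the same fraction correlated between gradients with Pearson's R of 0.943 to 0.974. All 5 hepatocyte markers were detected, with summed TPM medians of 29315 in light, 10346 in middle and 11802 in dense fractions. Alb was the largest part of these sums, averaging 10503 TPM in gradient 1 and 8497 TPM in gradient 2. Cps1 came next, at 2064 and 3559 TPM.

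Growth hormone from the pituitary acts on the liver through Ghr, a cytokine receptor that signals through the kinase Jak2, and induces Igf1, the main circulating growth factor of the axis. Igf1 travels in blood bound to IGF-binding proteins, and Igfals is the acid-labile subunit that stabilizes the large complex of Igf1 with a binding protein. Insr is the insulin receptor, a tyrosine kinase that phosphorylates the adaptors Irs1 and Irs2, which then recruit phosphatidylinositol 3-kinase. Igf2r binds Igf2 and mannose 6-phosphate and carries lysosomal enzymes. Secreted factors and membrane receptors are translated at the endoplasmic reticulum after a hydrophobic stretch near the amino terminus, whereas the adaptors are made in the cytosol.

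That difference can be read in the coding sequence, so the most hydrophobic run of 10 codons among the first 40 of each gene is shown, written 5′ to 3′ on the coding strand with capitals for codons that have T as the second base (those for phenylalanine, leucine, isoleucine, methionine and valine). Sequences and positions are from the GRCm38 assembly (mm10) with GENCODE release M21, and every window lies within a single coding exon.
Igf1: cacCTCTTCtacCTGgcgCTCtgcTTGCTC
Igfals: gccCTGGTGGTGCTTCTGgctTTCtggGTG
Igfbp1: GTTGTTtcttggccgTTCCTGATTCTCCTG
Igfbp2: CTGCTCCTGccgtcgTTGCTCTTGCTGCTG
Igfbp4: TTCggcCTCGTGgccgccCTGCTGCTGgcc
Ghr: GTCTTCTTAaccTTGgcaCTGgcaGTCacc
Insr: TTGCTGGTGgccGTGgccgcgTTGCTGGTG
Igf2r: CTCCTGCTGCTGCTGCTCCTGgcggccgcg
Irs1: TTTTTCGTGCTGcgggcggccagcgaggcc
Irs2: ATGgctagcgcgcccCTGcctgggcccccc

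The windows of the secreted factors lie at chr10:87864758-87864787 on the plus strand in exon 2 of 5 (Igf1), chr17:24879961-24879990 plus in exon 2 of 2 (Igfals), chr11:7197977-7198006 plus in exon 1 of 4 (Igfbp1), chr1:72824613-72824642 plus in exon 1 of 4 (Igfbp2) and chr11:99041506-99041535 plus in exon 1 of 4 (Igfbp4). Those of the receptors lie on the minus strand at chr15:3457955-3457984 in exon 2 of 11 (Ghr), chr8:3279060-3279089 in exon 1 of 21 (Insr) and chr17:12769444-12769473 in exon 1 of 48 (Igf2r). Those of the adaptors also lie on the minus strand, at chr1:82290380-82290409 in exon 1 of 2 (Irs1) and chr8:11008401-11008430 in exon 1 of 2 (Irs2). The 8 secreted and receptor windows held 6 to 8 codons with T in the second place, against 4 in Irs1 and 2 in Irs2. Mean Kyte-Doolittle hydropathy, a scale on which positive values are hydrophobic, was 2.16 (Igf1) to 3.32 (Insr) in the secreted factors and receptors, 1.02 in Irs1 and 0.17 in Irs2. Of 10550 annotated genes, 15.8% reached 2.16, a limit set from Igf1 after its value was seen. The median center of sedimentation, the mean fraction number weighted by TPM, of those genes was 9.32 in gradient 1 and 10.4 in gradient 2, against 11.8 and 11.6 for the other genes, which is a description with no test.

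The annotated transcripts used here measured 9355 bases for Insr, 9144 for Irs1, 8887 for Igf2r, 6323 for Irs2, 4175 for Ghr, 3831 for Igfbp4, 2625 for Igfals, 1673 for Igf1, 1525 for Igfbp1 and 1307 for Igfbp2. All 5 secreted factors were thus shorter than every receptor and adaptor, and the lengths of receptors and adaptors overlapped. The part of length in the profiles was not tested.

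Igf1, Insr and Ghr RNA were concentrated in the light fractions, and Igf2r, Igfals, Igfbp1 and Igfbp4 were also highest there in both gradients. Igfbp2 was highest at the light end in gradient 1 and at the dense end in gradient 2. Irs1 varied least, by the ratio of its highest to its lowest value, and Irs2 rose toward the dense end. In gradient 1, Igf1 had 262, 466, 357 and 235 TPM in fractions 4 to 7, and in gradient 2 it had 335, 466, 551 and 275 TPM. In fractions 16 to 19 it had 39.8, 36.3, 39.0 and 43.2 TPM in gradient 1 and 78.6, 83.3, 84.3 and 93.3 TPM in gradient 2. Every light library was thus far above every dense library, and the dense values were almost level.

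Insr followed Igf1 closely although it encodes a receptor rather than a ligand. Its TPM in fractions 4 to 7 was 52.1, 94.3, 67.8 and 41.5 in gradient 1 and 53.0, 88.0, 84.9 and 45.4 in gradient 2. In fractions 16 to 19 it was 7.80, 6.80, 8.98 and 7.18 in gradient 1 and 12.1, 11.9, 12.9 and 15.4 in gradient 2. The light and dense libraries did not overlap in either gradient.

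Ghr formed a plateau rather than a peak at the light end. It had 529, 538, 504 and 511 TPM in fractions 4 to 7 of gradient 1 and 755, 713, 762 and 753 TPM in the same fractions of gradient 2. By fraction 10 it had reached 162 and 301 TPM, and in fractions 16 to 19 it lay between 53.7 and 88.2 TPM in gradient 1 and between 176 and 179 TPM in gradient 2. The plateau reached further down the gradient than the peaks of Igf1 and Insr, which by fraction 7 lay below the middle of their range.

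Igf2r was the least abundant of the 10 RNAs, and its highest value was 8.45 TPM in gradient 1 and 8.18 TPM in gradient 2, both in fraction 5. Over the 8 light libraries it had 5.02, 7.01 and 8.45 TPM as the lowest, median and highest value, and over the 8 dense libraries 1.10, 1.81 and 2.42 TPM. On the opposite strand Igf2r overlaps Airn, which is also in the tables. The libraries were stranded, but whether strand was used in quantification is not given in the sources used here.

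Among the secreted carriers, Igfbp4 was the most abundant RNA of the axis and peaked sharply. It had 1890, 2246, 1447 and 1073 TPM in fractions 4 to 7 of gradient 1 and 2048, 2647, 1604 and 1295 TPM in gradient 2. Its dense libraries held 363 to 404 TPM in gradient 1 and 770 to 962 TPM in gradient 2. Igfals declined more gradually, from 67.7 TPM in fraction 6 of gradient 1 and 45.4 TPM in fraction 7 of gradient 2 to dense values between 13.8 and 21.4 TPM over both gradients. Igfbp1, which is regulated by insulin and fasting in liver, had 7.72, 11.8 and 15.9 TPM as the lowest, median and highest of its 8 light libraries and 1.49, 4.53 and 6.99 TPM in its 8 dense libraries.

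Igfbp2, another IGF-binding protein of liver and plasma, had a different course in each gradient. In gradient 1 it had 53.3, 36.6, 34.3 and 44.2 TPM in fractions 4 to 7, and 12.1, 13.5, 14.8 and 22.5 TPM in fractions 16 to 19. In gradient 2 the light values were 111, 109, 100 and 113 TPM and the dense values 69.5, 81.7, 102 and 119 TPM. The light and dense libraries were apart in gradient 1 and overlapped in gradient 2, where the RNA was lowest in fraction 13 at 52.2 TPM and highest in fraction 24 at 184.6 TPM.

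The adaptors did not share a course. Irs1 had 26.5, 41.5, 28.2 and 26.8 TPM in fractions 4 to 7 of gradient 1 and 18.3, 29.8, 21.5 and 17.4 TPM in gradient 2. Its dense values were 19.8 to 23.1 TPM and 11.4 to 12.7 TPM, below the light values of the same gradient. Its highest value over the 17 shared fractions was 2.09 and 2.61 times its lowest in gradients 1 and 2, the smallest ratio of the 10 RNAs in each.

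Irs2 started low and rose. It had 9.62, 20.1, 25.4 and 31.2 TPM in fractions 4 to 7 of gradient 1 and 9.91, 19.3, 22.8 and 27.0 TPM in gradient 2. In fractions 16 to 19 it had 43.2, 55.7, 49.6 and 39.9 TPM in gradient 1 and 41.5, 39.5, 39.5 and 35.5 TPM in gradient 2. Every dense library lay above every light library of both gradients. On the opposite strand Irs2 overlaps 9530052E02Rik, which is also in the tables.

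**Figure D1:**
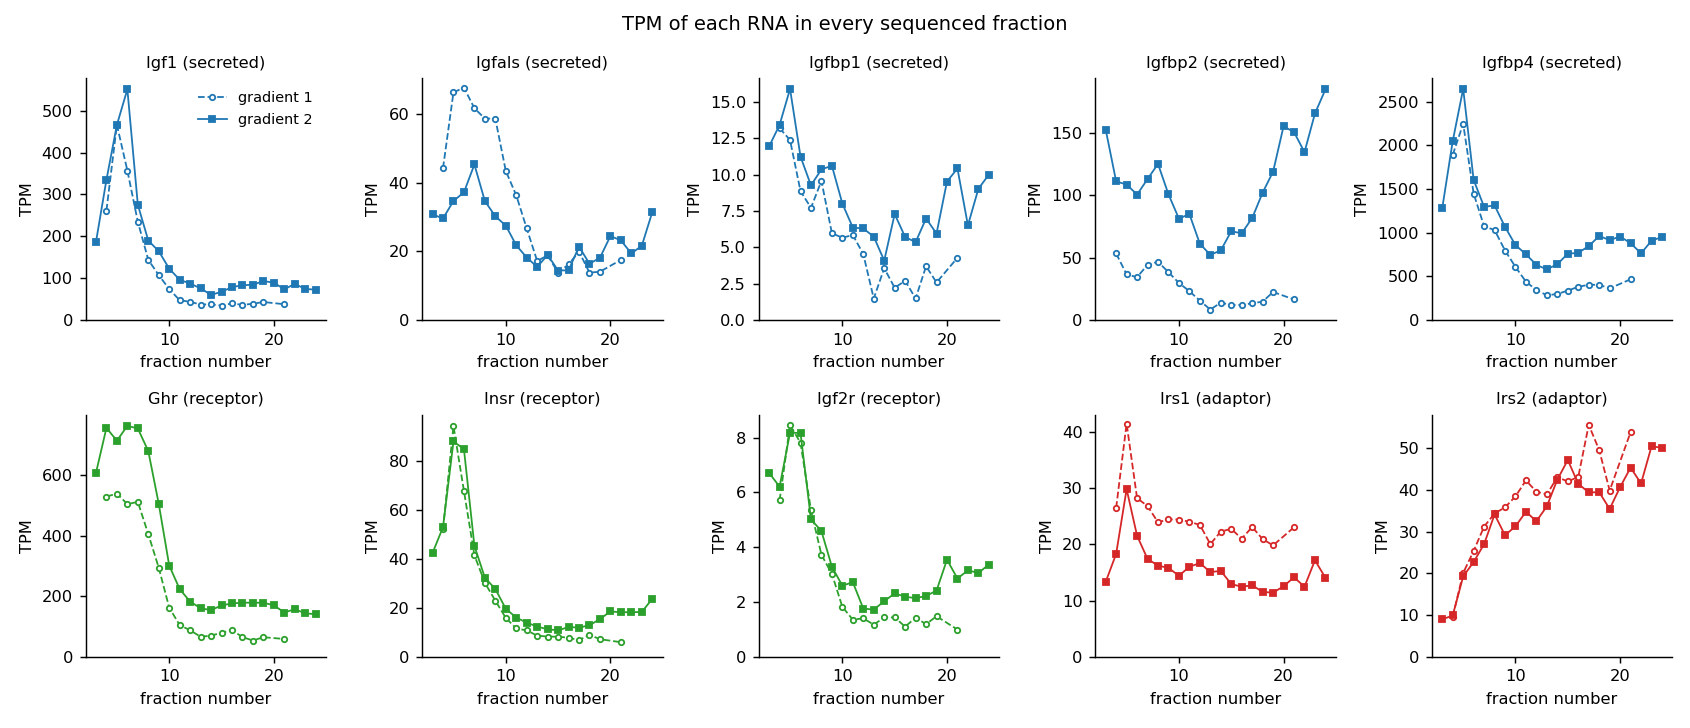
TPM of each RNA against fraction number (light to dense, left to right) in gradient 1 (open circles, dashed) and gradient 2 (filled squares, solid), 1 point per library, each panel with its own TPM axis from 0. Igf1, Insr, Igf2r and Igfbp4 peak in fractions 5 or 6, Ghr is level over fractions 4 to 7, Igfbp2 is high again at the dense end of gradient 2, and Irs2 climbs from about 10 TPM in fraction 4.

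To compare the ends of the gradient, each gradient was averaged as log2(TPM + 1) over light (fractions 4 to 7), middle (10 to 13) and dense (16 to 19) zones. Limma was fitted to 11754 genes without pairing the zones of a gradient, so differences in level between gradients entered the SE. A paired fit is given beside it below. From the light to the dense zone, 4 of 5 secreted factors and 3 of 3 receptors fell, while Irs2 rose. Over all genes tested, 39.6% were called lower and 22.3% higher in the dense zone at a Benjamini-Hochberg adjusted p under 0.05. Of the genes called, 36.0% were higher, or 50.6% when quantile normalization was applied first, so the split between rises and falls depended on the scaling. The median over all genes was -0.43 on the log2 scale, and the medians of the secreted factors, receptors and adaptors were -1.43, -2.50 and 0.24. Differences between the 3 roles were not tested, because genes are not replicates of a role.

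Igf1 fell by 2.59 on the log2(TPM + 1) scale from light to dense (SE 0.45, limma adjusted p = 0.00414, 2 gradients). Before logs, its zone mean was 8.34 times higher in the light zone in gradient 1 and 4.79 times in gradient 2. Among the carriers, Igfbp4 fell by 1.56 (SE 0.44, adjusted p = 0.0247), Igfals fell by 1.43 (SE 0.30, adjusted p = 0.00813) and Igfbp1 fell by 1.30 (SE 0.39, adjusted p = 0.0293), all lower in both gradients. Igfbp2 had a difference of -0.81 (SE 1.02, adjusted p = 0.510), with -1.38 in gradient 1 and -0.24 in gradient 2, and did not pass.

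All 3 receptors fell. Insr fell by 2.54 (SE 0.29, adjusted p = 9.44e-04 in limma), Ghr fell by 2.50 (SE 0.56, adjusted p = 0.0102) and Igf2r fell by 1.51 (SE 0.26, adjusted p = 0.00391). The light zone mean of Insr was 8.31 times the dense in gradient 1 and 5.18 times in gradient 2. For Ghr the same ratios were 7.67 and 4.19, and for Igf2r they were 5.26 and 3.07. In each of them gradient 1 had the larger ratio.

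Irs2 rose by 1.11 (SE 0.19, limma adjusted p = 0.00361), with a dense zone mean 2.18 times the light in gradient 1 and 1.97 times in gradient 2. Irs1 had a difference of -0.63 (SE 0.35, adjusted p = 0.161), close to the median of all genes, and did not pass. Because the zones of a gradient come from 1 homogenate, the same contrast was fitted with the gradient as a paired block. With it, Irs1 (adjusted p = 0.00444) and Igfbp2 (adjusted p = 0.0364) passed as lower, which made 9 lower and 1 higher, against 50% lower and 30.5% higher over all genes. Relative to the median of all genes, the change was -2.16 for Igf1, -2.11 for Insr, -2.08 for Ghr, -0.21 for Irs1 and 1.54 for Irs2.

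Much of this difference was already present in the middle zone. From light to middle, Igf1 fell by 2.36 (SE 0.45, limma adjusted p = 0.00856), Insr fell by 2.17 (SE 0.29, adjusted p = 0.00283), Ghr fell by 2.10 (SE 0.56, adjusted p = 0.0254), Igfbp4 fell by 1.69 (SE 0.44, adjusted p = 0.0245) and Igf2r fell by 1.48 (SE 0.26, adjusted p = 0.00637). Irs2 rose by 0.89 (SE 0.19, adjusted p = 0.0115). Over all genes, 24.1% were called lower and 23.5% higher, with a median of 0.05. This comparison shares its light libraries with the one above and is no independent check of it.

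The other 4 RNAs did not pass from light to middle. Igfals had -0.90 (limma adjusted p = 0.0508), Igfbp1 -0.99 (adjusted p = 0.0822), Igfbp2 -0.93 (adjusted p = 0.483) and Irs1 -0.41 (adjusted p = 0.372). With the gradient as a paired block all 4 passed as lower, at adjusted p of 0.0135, 0.00780, 0.0268 and 0.0255 in this order, against 35% lower and 37.2% higher over all genes.

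Between the middle and the dense zone 0 of 10 passed in limma, 0 had an unadjusted p under 0.05, and 0 passed with the gradient as a paired block. The smallest adjusted p was 0.252 (Igfals), or 0.0926 with the block. Over all genes, 22.5% were lower and 4.79% higher in the dense zone, or 39.3% and 14.1% with the block. Of the genes called, 17.5% were higher, or 42.9% after quantile normalization. In the unpaired fit the 95% intervals were wide, for instance -1.33 to 0.88 for Igf1 and -0.24 to 0.67 for Irs2. The paired block lowered the SE from 0.45 to 0.20 for Igf1 and from 0.19 to 0.10 for Irs2. When quantile normalization was applied first, 1 RNA, Irs2, passed as higher (limma adjusted p = 0.0468).

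Single libraries were also compared without a fit. All 4 dense libraries lay below all 4 light libraries in both gradients for 8 of 10 RNAs, the exceptions being Igfbp2 and Irs2, where 34.2% of all genes did so. Irs2 lay above, as did 21.7% of genes. From light to middle, 9 RNAs lay below (20.8% of genes) and Irs2 above (25.6% of genes). Irs1 in both comparisons, and Igfals, Igfbp1 and Igfbp2 from light to middle, separated in this way without passing in the unpaired fit.

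Calls depended on which zone means were kept, over all genes as well. Without the light zone of gradient 1 or without that of gradient 2, 4 RNAs were called lower from light to dense and 2 from light to middle, and Irs2 passed only from light to dense. In the same refits the genes called in either direction went from 7274 to 5098 and 5373 from light to dense, and from 5589 to 2913 and 3240 from light to middle. Without the light zone of gradient 1 the calls of Igfals, Igfbp1 and Igfbp4 were lost, and without that of gradient 2 those of Igfbp1, Igfbp4 and Ghr. From light to middle, Igf1, Igfbp4, Ghr and Irs2 lost theirs without either light zone, and Igfbp4, Ghr and Irs2 without the middle zone of gradient 1, which left 3 called lower. Igfbp1 and Igfbp4 also lost theirs without the dense zone of gradient 1, where Igfbp2 turned to 0.44. These refits set a zone of 1 gradient against zones of both, unpaired, so differences in level between gradients entered the contrast. Within each gradient Igfbp2 was lower in the dense than in the light zone (-1.38 and -0.24 in gradients 1 and 2). Igfbp1 missed the threshold under quantile normalization too (adjusted p = 0.127).

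**Figure D2:**
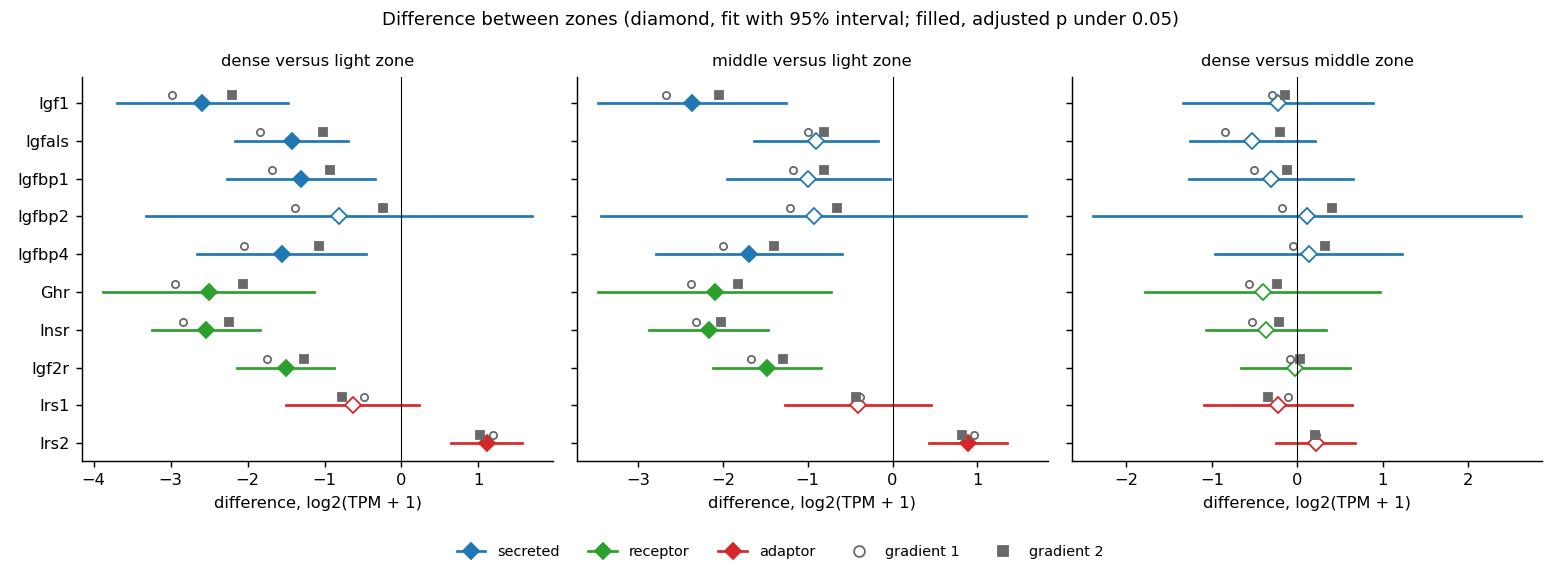
Differences of log2(TPM + 1) between zones for each RNA. Diamonds are estimates of the unpaired limma fit (filled where the adjusted p is under 0.05) with 95% intervals. Open circles are values of gradient 1 and filled squares those of gradient 2. Secreted factors and receptors lie left of 0 in both comparisons with the light zone, Irs2 lies right of 0, and all intervals of dense versus middle cross 0.

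The center of sedimentation summarizes each profile over all 17 shared fractions. Weighted by TPM, it was lightest for Igf1 (7.92 in gradient 1 and 8.81 in gradient 2), Insr (7.96 and 8.87), Ghr (8.17 and 9.07) and Igf2r (8.71 and 9.86). The carriers followed, with Igfbp4 at 9.00 and 10.4, Igfals at 9.54 and 10.7, Igfbp1 at 9.44 and 10.8 and Igfbp2 at 9.91 and 12.0. Irs1 had 11.4 and 11.1, which in gradient 2 was lighter than Igfbp2, and Irs2 was densest in both gradients at 13.4 and 13.3. With log2(TPM + 1) as the weight the order changed, and Igf2r was lightest, with a mean over gradients of 10.6 against 11.3 for Igf1. The median over 11371 genes was 11.3 in each gradient. The centers of 7 RNAs lay below the median in both gradients, Igfbp2 and Irs1 were on either side of it, and Irs2 was above it in both.

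In all 8 secreted factors and receptors the center was denser in gradient 2, by 0.89 fractions for Igf1 up to 2.09 for Igfbp2, which exceeds most gaps between neighbors in the order. Irs1 and Irs2 moved the other way by 0.35 and 0.10. Within each gradient Igf1, Insr, Ghr and Igf2r nevertheless kept the same order.

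**Figure D3:**
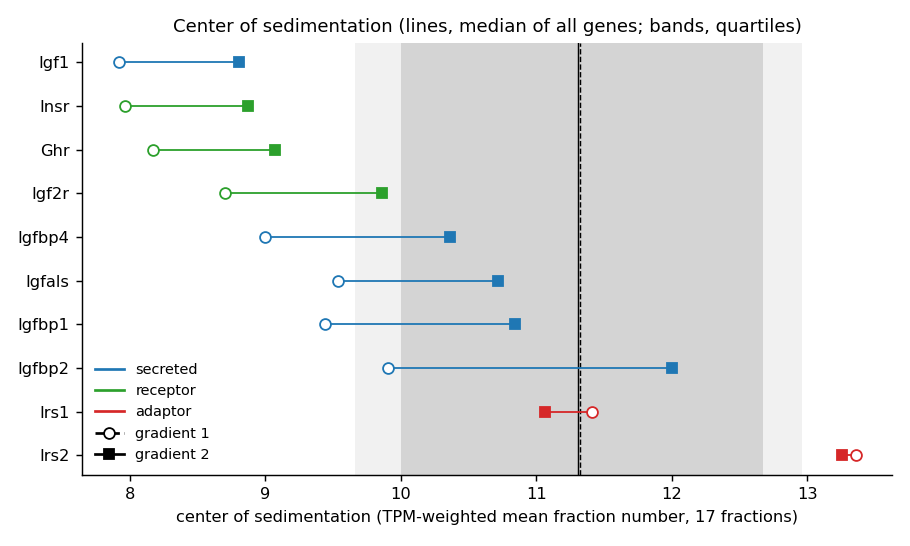
Center of sedimentation of each RNA, the TPM-weighted mean fraction number over 17 fractions, in gradient 1 (open circles) and gradient 2 (filled squares), with the median (lines, dashed for gradient 1) and quartiles (bands) of 11371 genes. Igf1, Insr and Ghr lie at 7.92 to 9.07, left of both bands, and Irs2 at 13.3 to 13.4 lies right of them.

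By level, averaged over the 17 shared fractions and comparable between genes because TPM is per length, Igfbp4 led with 754 TPM in gradient 1 and 1092 TPM in gradient 2. Ghr had 216 and 365 TPM and Igf1 120 and 171 TPM. Igfbp2 (25.6 and 93.4 TPM), Irs2 (37.9 and 33.4), Igfals (35.0 and 24.8), Insr (24.1 and 28.6) and Irs1 (24.5 and 16.0) came next, and the neighbors in this order overlapped between gradients, so their order is not resolved. Igfbp1 had 5.63 and 8.41 TPM and Igf2r 2.88 and 3.55 TPM. Irs2 exceeded Irs1 in mean level in both gradients, although in fractions 4 and 5 of each gradient Irs1 was the higher.

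Levels differed between gradients most for Igfbp2, which was higher in gradient 2 in 17 of 17 fractions with a mean 3.64 times that of gradient 1, at the 99.4th percentile of all genes. The median gene had a ratio of 0.883. Ghr was 1.69 times higher, Igfbp1 1.49 times, Igfbp4 1.45 times and Igf1 1.42 times, and all but Igf1 were higher in 17 of 17 fractions (Igf1 in 16). Irs1 had a ratio of 0.653 and was higher in gradient 2 in 0 of 17 fractions. With 1 gradient on each side this difference has no replicate and was not tested.

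The densest fractions were sequenced only in gradient 2. Over fractions 22 to 24, Igfbp2 averaged 161 TPM, 2.31 times its middle zone and at the 95.6th percentile of genes. The ratio was 1.45 for Igf2r, 1.41 for Irs2, 1.30 for Insr, 1.29 for Igfbp1, 1.24 for Igfbp4, 1.16 for Igfals, 0.937 for Irs1, 0.814 for Igf1 and 0.679 for Ghr, with a median of 0.700 over all genes. Insr and Igf1, alike in the light fractions, thus had different ratios here, in gradient 2 alone. In fraction 21, the densest of gradient 1, Insr was at 0.509 of its middle zone in gradient 1 and at 1.18 in gradient 2. Igf1 was at 0.749 and 0.771, so Insr was below it in gradient 1 and above it in gradient 2. Igfbp2 was at 0.859 and 2.15. Igfbp4 (1.12 and 1.25) and Irs2 (1.35 and 1.35) were above their middle zone in both gradients.

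Profiles were also compared in pairs across fractions. Pearson's R over 17 fractions had a median of 0.891 in gradient 1 and 0.816 in gradient 2 among the 28 pairs of secreted factors and receptors. The closest pair was Igf1 with Insr, at 0.997 and 0.990. Irs1 correlated with these 8 RNAs with medians of 0.793 and 0.802, and Irs2 with medians of -0.818 and -0.780. The adaptors correlated with each other at -0.615 and -0.692. Neighboring fractions are not independent and all RNAs of a fraction share 1 library, so these values are descriptions.

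Between gradients, the profile of each RNA correlated with itself at 0.551 (Igfbp2) to 0.993 (Ghr), with a median of 0.904 over all genes. Igfbp2, at the 11.9th percentile, was the only one of the 10 below 0.87. In gradient 2 it correlated with the other secreted factors and receptors at 0.341 (Igf1) to 0.614 (Igfbp1), against 0.685 (Insr) to 0.895 (Ghr) in gradient 1.

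**Figure D4:**
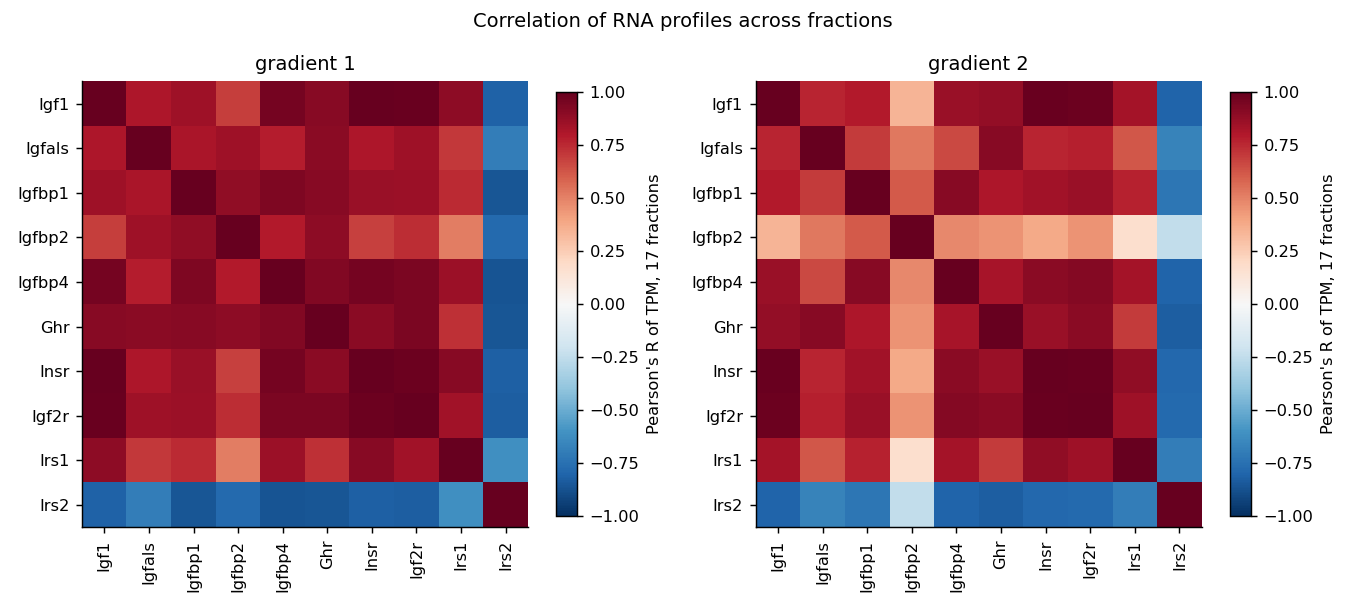
Pearson's R of TPM over 17 fractions between each pair of the 10 RNAs, in gradient 1 (left) and gradient 2 (right), on a scale from -1 (blue) to 1 (red). The secreted factors and receptors form a red block with Irs1, paler for Igfbp2 in gradient 2, and Irs2 is negative with all 9 others.

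The genes with the most similar profiles were taken by the lower of the R values of both gradients, among 6728 or 6729 genes with a mean of at least 10 TPM. For Igf1 they were Apob, the structural protein of very low density lipoprotein (0.994), Slc10a5 (0.992) and Lpgat1, an acyltransferase (0.991). For Insr they were Lpgat1 (0.996), Slc10a5 (0.994) and Reep3 (0.994), and for Igf2r they were Abca1, a cholesterol exporter (0.989), C9, a complement component (0.987), and Lpgat1 (0.987). For Ghr they were Cdk2ap1 (0.982), Dleu2 (0.982) and Ppp1r14b (0.980), of which Dleu2 is a long noncoding RNA.

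The carriers had neighbors of their own. For Igfbp4 they were Pgrmc2 (0.989), Surf4, a cargo receptor of the endoplasmic reticulum (0.986), and Proz (0.985). For Igfbp1 they were the plasma proteins Serpinf2 (0.946), Agt, the precursor of angiotensin (0.938), and Serping1 (0.938), and for Igfals they were Ccm2 (0.951), Orai3, a calcium channel (0.947), and Ankrd40 (0.946). Igfbp2 had few close neighbors: the lysosomal protease Ctsl (0.909), the lipid droplet protein Hsd17b13 (0.893) and Serpinf1 (0.891), and only 1 gene was over 0.9 in both gradients, against 408 for Igf1 and 484 for Insr. For Irs1 they were Tbcel (0.967), Gpalpp1 (0.961) and Gtf2a1 (0.957), and for Irs2 they were Gm15800 (0.958), Pla2g6, a phospholipase (0.952), and Eif4g3, a translation initiation factor (0.951).

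Of the other genes of the axis, some of each role were measured. From light to dense, 2 of the 3 other secreted factors tested (of 15 listed) fell, against 39.6% of all genes. The binding protein Igfbp3 fell by 2.35 (SE 0.23, limma adjusted p = 6.77e-04) and Igfbp5 fell by 1.78 (SE 0.25, adjusted p = 0.00198), and Igfbp7 had -0.14 (adjusted p = 0.562). Of 2 other receptors tested (of 6 listed), 0 passed, with Prlr at -1.14 (adjusted p = 0.0871) and Gcgr at -0.66 (adjusted p = 0.0695), and both were called lower with the paired block. Of 35 cytosolic or nuclear signaling proteins tested (of 38 listed), 14 fell, 5 rose and 16 did not pass, against 39.6% lower and 22.3% higher over all genes, with a median of -0.35 against -0.43 over all genes. With the paired block 18 fell and 8 rose, against 50% and 30.5% of all genes.

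Cytosolic genes that passed went both ways. Grb14, an adaptor that inhibits the insulin receptor, rose by 1.70 (SE 0.29, limma adjusted p = 0.00411) and Mtor, the growth-controlling kinase, by 1.42 (SE 0.23, adjusted p = 0.00296). Jak2, the kinase bound to Ghr, fell by 2.13 (SE 0.20, limma adjusted p = 5.86e-04). From light to middle, 5 of the 35 fell and 9 rose, against 24.1% and 23.5% of all genes, and with the paired block 11 fell and 14 rose, against 35% and 37.2%. From middle to dense 14 fell, against 22.5% of all genes. With the paired block 22 fell and 2, Stat5a and Mtor, rose, against 39.3% and 14.1% of all genes.

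Markers of other liver cells also moved along the gradient. The summed TPM of 5 Kupffer cell markers was 112 to 163 in light libraries and 39.5 to 51.0 in dense ones, that of 5 sinusoidal endothelium markers 37.4 to 73.2 and 17.3 to 35.3, and that of 4 of 5 stellate cell markers 32.1 to 79.3 and 5.72 to 19.9. Blood markers (4 of 5) went from 257 to 497 TPM in light to 66.8 to 106 TPM in dense libraries. That sum was mostly the globin RNA Hba-a1, with means of 253 and 187 TPM in gradients 1 and 2, against 0.54 to 7.93 TPM for the others. Cholangiocyte markers (4 of 5) went from 3.09 to 8.85 TPM to 4.85 to 9.43 TPM. Many of these markers encode secreted or membrane proteins themselves, and their part in the falls above was not tested.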

How the data were processed

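RNA was measured in 39 libraries of liver fractions. The authors made stranded libraries depleted of ribosomal RNA and quantified reads with Kallisto against RefSeq transcripts of mm10. Each gradient has a deposited table of TPM by gene symbol. Every gene in either table exceeded 1 TPM in at least 1 fraction. The Kallisto version and the summing of transcripts are not given in the sources used here. Depth and counting error are unknown, and precision is known only from the spread between 2 gradients. All columns matched a sample (0 unmatched).

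Genes with a mean of at least 1 TPM over the 24 zone libraries were tested with limma (trend in eBayes, Benjamini-Hochberg threshold 0.05) on 6 zone means of log2(TPM + 1), a scale that understates changes of low genes. The fit was tested on simulated data. Centers and correlations used 17 shared fractions and genes with a mean of at least 1 TPM in both gradients. Zones of a gradient share a homogenate, which pairs them: across genes, their departures from the mean of both gradients correlated at 0.665 (light and middle), 0.540 (light and dense) and 0.798 (middle and dense) over 11754 genes.

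The genes, lists and zones were chosen with earlier results of these data known. Named genes are the 10 RNAs, per list of other axis genes the 2 largest rises and falls from light to dense that passed and went the same way in both gradients, and per RNA the 3 genes with the most similar profile. A result that this rule names is not reported here. Igfbp7, Prlr, Gcgr and Stat5a were named after their values were seen. The annotated transcript of a gene was the principal one with the longest coding sequence in GENCODE M21. Alternatives were scaling, pseudocount (0.1), filters, the gradient block, left-out zones, gradients or fractions, zone borders and shifted fractions. Protein sequences and mass spectrometry were not analysed here. Tools were limma 3.58.1 in R 4.3.3, and Biopython 1.88, pandas 2.3.3, Matplotlib 3.10.9, NumPy 2.4.6 and SciPy 1.17.1 in Python 3.11.15.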

Additional observations from a re-analysis of the deposited data

How the results depend on the processing

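Of 626 values of single genes under alternatives, 568 kept their direction and their side of the threshold or moved by no more than a limit. That limit was the spread between gradients for centers. For values of a gradient alone it was the SE of the unpaired fit, which was wide for Igfbp2 (1.02 from light to dense). Of the rest, 20 lost a call, 18 gained one, 18 moved (12 centers and 6 values of a gradient alone) and 2 reversed. Both reversals were of Igfbp2, which ranged from -2.06 to 0.44 from light to dense and from -1.88 to 0.029 from light to middle when zones, gradients or fractions were left out. Within gradients 1 and 2 it did not reverse, with -1.38 and -0.24 from light to dense and -1.20 and -0.65 from light to middle. Igf1, Insr, Igf2r and Irs2 passed from light to dense under each alternative in which they were tested. With the gradient as replicate block, which pairs the zones, 9 RNAs rather than 5 were called lower from light to middle, and calls over all genes rose from 5589 to 8478 (middle versus light) and from 3208 to 6275 (dense versus middle). A mean of at least 10 TPM removed Igfbp1 and Igf2r, and the refit over fewer genes called 4798 from light to dense, against 7274. Quantile normalization moved the median of all genes from -0.43 to -0.05 from light to dense and gave 1 RNA called higher from middle to dense. Shifting gradient 2 by 1 fraction gave 1919 calls in that comparison. With zones or fractions left out, 4 to 7 RNAs were called lower and 1 higher from light to dense (5098 to 7387 genes), 2 to 6 lower and 0 to 1 higher from light to middle (2913 to 6070 genes), and 0 from middle to dense (0 to 3813 genes, 0 without either middle zone). A lone zone mean was assumed to vary like the others. The median R over both gradients of Irs1 with the secreted factors and receptors (0.797) was 0.751 on the log2 scale, 0.743 over all fractions of gradient 2 and 0.861 without the 50 most abundant genes. That of Irs2 (-0.799) was -0.772 and -0.755 under the first 2 of these. The median R between gradients (0.958) was 0.844 and 0.802 after shifts by 1 fraction, and log2 weights drew the centers toward the middle, to between 10.6 (Igf2r) and 12.5 (Irs2).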
